A study of Mus musculus with 12 samples.

Results

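The genes described here encode 39 proteins of blood clotting and complement, taken by gene symbol from a table of 45777 mouse genes. Each symbol matched 1 row. They comprise 21 clotting genes, with the anticoagulants and the genes of fibrin breakdown counted among them, and 18 complement genes. All but one encode proteins that hepatocytes release into plasma. The exception is C5ar1, the receptor for the complement fragment C5a, which belongs to myeloid cells. RNA was sequenced from the livers of 12 male C57BL/6 mice that had been fasted overnight, and the mice formed 4 groups of 3. WT animals received vehicle or one intraperitoneal dose of 300 mg/kg acetaminophen (APAP), a painkiller that injures the liver in overdose, and so did mice labelled as knockouts of Gna12, which encodes the G protein subunit Gα12, for which the WT mice were age-matched littermates. The livers were taken at 6 h, and the labels give the mice as 10 to 12 weeks old. The comparisons ask how these genes responded to APAP under each genotype label, and whether clotting and complement responded alike.

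Clotting proceeds as a chain of plasma proteases: vitamin K-dependent zymogens and contact factors activate one another until thrombin cuts fibrinogen to fibrin, while antithrombin, protein C and protein S restrain them and plasmin dissolves the clot. Complement is a parallel set of plasma proteins in which the classical, lectin and alternative routes converge on C3 and then on a membrane attack complex built from the terminal components. The liver makes most of both systems, and fibrinogen and C3 are known as acute phase proteins whose synthesis increases in inflammation.

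Expression of a gene in 1 liver is given as CPM, the read count divided by the library's total and scaled up, after TMM scaling (a correction for library composition), with livers 1, 2 and 3 of a group in that order, and levels of different genes are compared in TPM, which corrects for transcript length. Total gene counts ranged from 49737950 to 69566079 per liver. Gna12 was counted 1193 to 4373 times in the WT livers and 2472 to 4003 times in the livers labelled KO, so its mRNA was not lower under the KO label and the groups are named by their labels. A pair of libraries stood apart. WT vehicle liver 2 had the highest CPM of the 12 livers for 22 of the 39 genes, and its summed acute phase proteins reached 58400 CPM against 18800 to 29100 CPM in the other 11 livers. WT APAP liver 1 had erythroid genes at 1.30% of its counts against 0.0287% to 0.0681% elsewhere, and a TMM factor of 0.75. For some genes, counts and medians, values without 1 or both of these livers are also given. The markers of pericentral hepatocytes, the cells in which APAP is mainly activated, summed to 3770 to 6240 CPM in the 6 APAP livers and to 9570 to 11000 CPM in the 6 vehicle livers. In a comparison of all 12 livers 8 of 9 were lower, where 11.4% of all genes were. In whole liver, fewer cells of a type and less RNA per cell cannot be told apart.

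In the vehicle livers these genes spanned the range from the most abundant plasma protein transcripts to traces. C3 (median 2408 TPM over 6 vehicle livers) and the fibrinogen chains Fgb (2330 TPM) and Fgg (1553 TPM) led, and plasminogen (Plg, 1344 TPM), high-molecular-weight kininogen (Kng1, 1316 TPM), prothrombin (F2, 1283 TPM) and antithrombin (Serpinc1, 1225 TPM) followed. At the other end stood F11 (43.0 TPM), Masp1 (39.1 TPM), Pros1 (21.5 TPM) and C5ar1 (0.453 TPM). The abundant group overlapped: in vehicle livers Plg ranged from 895 to 1533 TPM and Kng1 from 1111 to 1486 TPM, so their order was within the spread between livers. Together the 39 genes made up 1.49% (WT APAP liver 1) to 4.26% (WT vehicle liver 2) of all TPM. The fibrinogen genes were 34.9% to 40.6% of the clotting TPM in 5 vehicle livers, 73.1% in WT vehicle liver 2, and 52.4% to 69.5% in the 6 APAP livers.

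Under the KO label, 20 of the 39 genes fell after APAP and 3 rose, by edgeR's quasi-likelihood test at a Benjamini-Hochberg adjusted p under 0.05 over 15665 genes. Among all genes, 9.6% were called lower and 13% higher. The 3 that rose were the fibrinogen chains, and the 20 that fell were 11 of 21 clotting genes and 9 of 18 complement genes. The median log2 fold change was -0.44 for clotting and -0.44 for complement, against -0.02 over all genes tested. Calls over all genes moved with single livers. They went from 2034 higher and 1504 lower of 15665 to 1261 and 734 of 16323 without KO-label vehicle liver 2. The count of the 39 genes depended on single livers as well. With 1 liver left out it was 15 without APAP liver 1, 21 without APAP liver 2, 11 without APAP liver 3, and 15, 10 and 14 without vehicle livers 1, 2 and 3, and 10 genes passed in all 6 of those fits (C2, C6, F7, F11, F13b, Fgg, Klkb1, Masp2, Pros1 and Serpind1).

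In WT mice, none of the 39 genes passed the same edgeR test, where 2.05% of 15693 genes did. At an unadjusted p under 0.05 there were 11 (18% of all genes), namely C2, C5ar1, F5, F7, F9, Hrg, Klkb1, Masp2, Pros1, Serpind1 and Serpinf2, and by DESeq2's Wald test 6 passed an adjusted p under 0.05 (9% of all genes), with C2, F7, Hrg, Masp2 and Pros1 lower and C5ar1 higher. The APAP and vehicle livers did not overlap, with APAP lower, for 18 genes in WT mice (11.9% of all genes) and for 29 under the KO label (21.1% of all genes). In WT mice these were 13 clotting and 5 complement genes, and under the KO label 15 and 14. The WT median was -0.37 for clotting and -0.10 for complement, against 0.03 over all genes, and without WT vehicle liver 2 it was -0.27 and 0.02. A difference between the clotting and complement medians was not tested under either label. With both WT vehicle liver 2 and WT APAP liver 1 left out, Klkb1 fell (log2 fold change -0.996, edgeR adjusted p 0.0319) and Fgb rose (1.37, edgeR adjusted p 0.0434).

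The comparisons under the 2 labels share no liver. The log2 fold change was below 0 in both for 30 of the 39 genes, where this held for 35.7% of all genes, and of the 20 genes that fell under the KO label 18 were below 0 in WT mice, C9 and Mbl1 being the others. Over all 12 livers, with the genotype label in the model, 19 genes fell and C5ar1 rose, where 11.4% of 16509 genes were called lower and 14% higher. These were 13 of 21 clotting genes (median of all 21 -0.36) and 6 of 18 complement genes (median of all 18 -0.31), against a median of 0.01 over all genes. For 13 genes no APAP liver of either label reached the lowest vehicle liver (5.37% of all genes), and 9 of these were clotting genes. When each of the 12 livers was left out in turn, 14 genes stayed lower in every fit (C1ra, C1s1, C2, C6, F5, F7, F9, F11, F13b, Hrg, Klkb1, Masp2, Pros1 and Serpind1), while F10 passed in 4 fits, C8b in 7, and Plg, Proc and Serpinf2 in 2 each. By edgeR's test with no liver left out, the genes that passed in no comparison were 12 of the 39: F2, F12, Kng1, Serpinc1, C3, C4b, C4bp, C8a, C8g, Cfb, Masp1 and Mbl2. The list depends on the test, as DESeq2's Wald test called 5 genes under the KO label that edgeR did not.

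**Figure D1:**
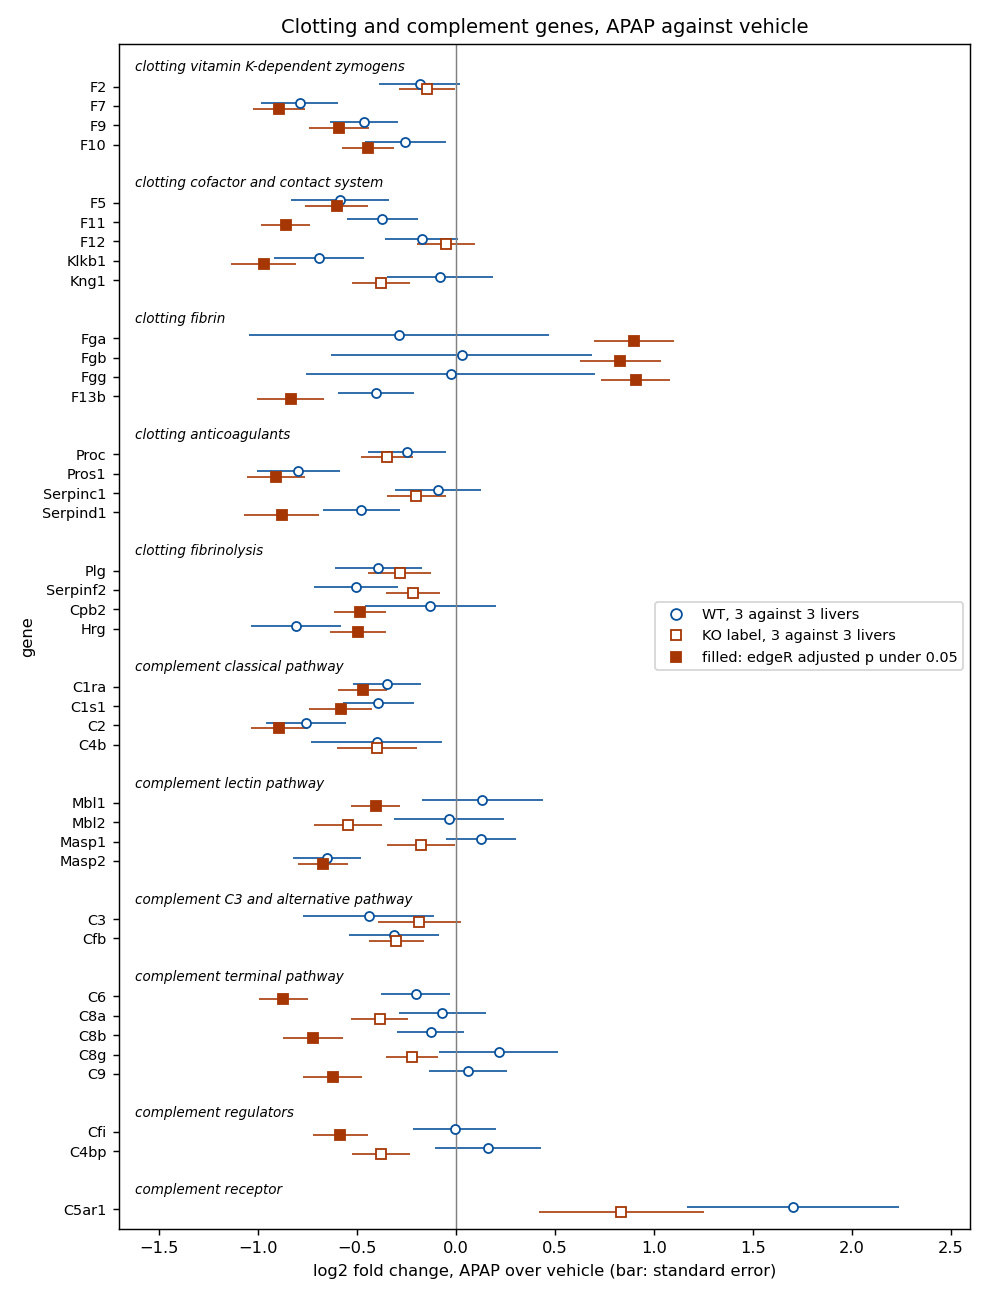
Log2 fold change of APAP over vehicle (x axis, bars give the standard error) for each of the 39 genes (y axis, grouped by role) in WT livers (circles) and livers labelled KO (squares), 3 against 3 livers each. Filled symbols passed edgeR's adjusted p under 0.05: 20 squares to the left of 0, the 3 fibrinogen squares to the right, and 0 circles.

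**Figure D2:**
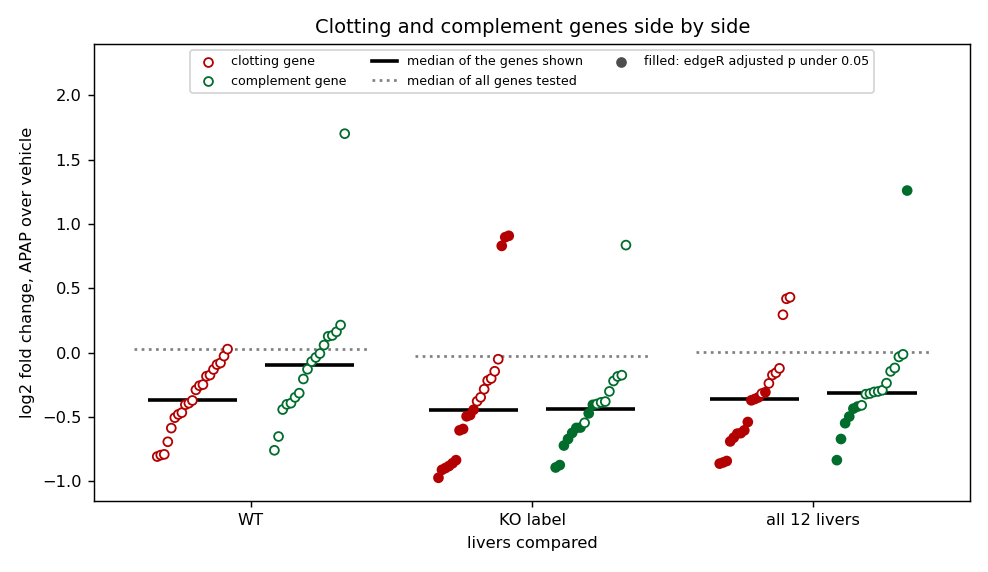
Log2 fold change of each clotting gene (red, 21) and complement gene (green, 18) in WT livers, livers labelled KO and all 12 livers, with the median of the genes shown (black line) and of all genes tested (dotted line). The clotting and complement medians lie close together under the KO label (-0.44 and -0.44) and further apart in WT livers (-0.37 and -0.10), a difference that was not tested. The 3 points that stand above the other clotting genes under the KO label and over all 12 livers are the fibrinogen chains.

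The fibrinogen genes were the clotting genes that went the other way. Fga, Fgb and Fgg encode the 3 chains of the protein that thrombin converts to fibrin, and they lie within one stretch of chromosome 3 on GRCm38 (Fgg chr3:83007724-83015056, Fga chr3:83026153-83033627, Fgb chr3:83042246-83049863), 11.1 and 8.6 kb apart. Fga stood at 2177, 14630 and 2191 CPM in the WT vehicle livers, 3443, 4305 and 7702 in the WT APAP livers, 2686, 2507 and 2228 in the KO-label vehicle livers and 4578, 3621 and 5549 in the KO-label APAP livers. Fgb stood at 2176, 12210 and 2277 CPM in the WT vehicle livers, 5384, 4706 and 6776 in the WT APAP livers, 2590, 2512 and 2459 in the KO-label vehicle livers and 4173, 3534 and 5659 in the KO-label APAP livers. Fgg stood at 1494, 9797 and 1466 CPM in the WT vehicle livers, 3993, 3071 and 5372 in the WT APAP livers, 1837, 1633 and 1723 in the KO-label vehicle livers and 3214, 2742 and 3740 in the KO-label APAP livers. In each chain WT vehicle liver 2 was the highest of the 12 livers, while the other 5 vehicle livers lay below all 6 APAP livers. Under the KO label Fga rose to 1.86 times its vehicle level (log2 0.90, SE 0.20, edgeR adjusted p 0.016), Fgb to 1.78 times (0.83, SE 0.20, 0.023) and Fgg to 1.88 times (0.91, SE 0.17, 0.00891). Fgg passed in all 6 fits with 1 liver left out, Fga in 4 and Fgb in 2, and none passed when the 12 livers shared one estimate of the spread (edgeR adjusted p 0.374, 0.344 and 0.345 for Fga, Fgb and Fgg). In WT mice the log2 fold changes were -0.29 (SE 0.76), 0.03 (SE 0.66) and -0.03 (SE 0.73) with WT vehicle liver 2, and 1.24, 1.34 and 1.49 without it (edgeR adjusted p 0.158, 0.0698 and 0.0739). Over all 12 livers they were 0.30, 0.42 and 0.43 and did not pass (edgeR adjusted p 0.678, 0.465 and 0.5). Without WT vehicle liver 2, all 3 rose in the remaining 11 livers, by 1.04 (Fga), 1.05 (Fgb) and 1.16 (Fgg) on the log2 scale (edgeR adjusted p 0.00336, 0.000874 and 0.000677).

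**Figure D3:**
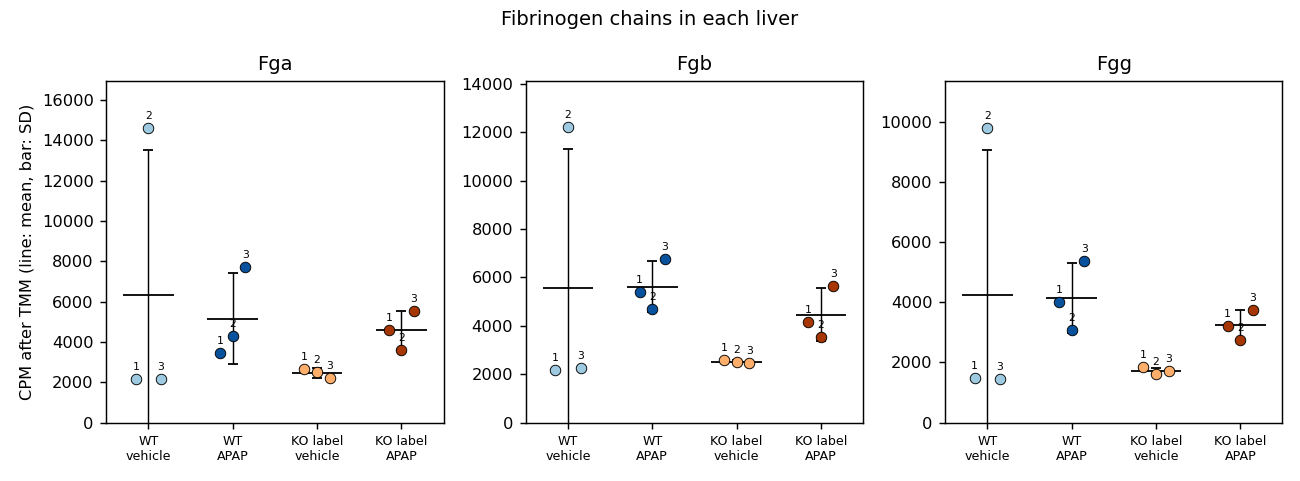
CPM of Fga, Fgb and Fgg (y axis, from 0) in each of the 12 livers, grouped by label and treatment, with liver numbers, the group mean (line) and SD (bar, ending at the axis where it would pass below 0). WT vehicle liver 2 is the highest point in each panel, and the other 5 vehicle livers lie below every APAP liver.

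Because these 3 genes moved together, the 250 bases before their transcription starts (RefSeq, GRCm38.p6) are shown, with every match to 3 fixed motifs in capitals: TTGCNNAA, a C/EBP-type site, GTTAAT, an HNF1-type site, and CTGGGAA, the core of an interleukin-6 response element. C/EBP proteins and STAT3, which interleukin-6 activates, are known regulators of acute phase genes, and HNF1 is a regulator of genes expressed in hepatocytes. Both strands were searched. The windows are chr3:83007474-83007723 (plus strand) for Fgg, chr3:83025903-83026152 (plus strand) for Fga and chr3:83049864-83050113 (minus strand) for Fgb.
Fgg: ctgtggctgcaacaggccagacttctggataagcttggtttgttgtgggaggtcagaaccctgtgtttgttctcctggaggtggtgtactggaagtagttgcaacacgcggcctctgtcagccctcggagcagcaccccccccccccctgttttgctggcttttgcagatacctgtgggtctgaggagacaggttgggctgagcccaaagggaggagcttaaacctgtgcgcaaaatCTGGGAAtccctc
Fga: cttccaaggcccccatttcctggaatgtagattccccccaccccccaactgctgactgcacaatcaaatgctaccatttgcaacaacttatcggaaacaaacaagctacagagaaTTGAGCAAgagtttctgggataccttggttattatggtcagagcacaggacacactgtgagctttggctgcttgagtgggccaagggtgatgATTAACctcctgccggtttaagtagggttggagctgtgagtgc
Fgb: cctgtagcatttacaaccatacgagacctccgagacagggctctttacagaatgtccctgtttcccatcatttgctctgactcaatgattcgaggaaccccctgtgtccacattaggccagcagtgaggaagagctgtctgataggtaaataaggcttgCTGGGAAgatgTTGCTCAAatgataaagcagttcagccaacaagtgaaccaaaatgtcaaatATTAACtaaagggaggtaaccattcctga

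Fgb held all 3 motifs, an interleukin-6 response element core at -91 to -85, a C/EBP-type site at -80 to -73 and an HNF1-type site at -29 to -24 from the start, the last on the reverse strand. In Fga a C/EBP-type site lay at -135 to -128 and an HNF1-type site at -43 to -38, both on the reverse strand, and Fgg held the interleukin-6 response element core alone, at -13 to -7. In windows of the same length, the C/EBP-type motif was present in 9.56% of 32851 RefSeq promoters, the HNF1-type site in 6.43% and the interleukin-6 response element core in 9.10%. RefSeq promoters were matched for 31 of the 39 genes, and among these the motifs were found in 9, 7 and 5 genes. A gene was counted if any of its promoters held the motif, whereas the percentages are shares of single promoters. C1s1 and C8g had more than 1 promoter. The genes with the C/EBP-type motif were C1s1, C3, C9, F9, F11, Fga, Fgb, Hrg and Klkb1, of which the 2 fibrinogen chains rose and C1s1, C9, F9, F11, Hrg and Klkb1 fell under the KO label, so the motif was found in genes of both directions. Among the listed hepatocyte transcription factors, Cebpb (log2 1.01, edgeR adjusted p 0.00514), Stat3 (0.97, 0.00596) and Cebpd (1.07, 0.0231) rose under the KO label. Nr5a2 and Nr0b2 fell there (-0.43 and -0.93, edgeR adjusted p 0.0229 and 0.0423). These were 5 of 14 tested (22.6% of all genes), while in WT mice 0 of 14 passed (2.05% of all genes). For comparison, the same windows are shown for the genes with the smallest p over all 12 livers that had a RefSeq promoter, F7 (chr8:13025784-13026033, plus strand), Masp2 (chr4:148602294-148602543, plus strand) and Pros1 (chr16:62854057-62854306, plus strand), which all fell. The windows of F7 and Masp2 precede transcript starts that lie 528 bases and 7.9 kb inside the annotated gene, whereas those of Pros1 and the fibrinogen chains end just before the gene's first base.
F7: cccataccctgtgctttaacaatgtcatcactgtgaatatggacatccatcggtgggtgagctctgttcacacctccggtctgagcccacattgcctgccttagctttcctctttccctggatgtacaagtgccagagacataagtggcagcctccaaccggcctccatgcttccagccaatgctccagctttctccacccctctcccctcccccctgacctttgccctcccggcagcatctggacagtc
Masp2: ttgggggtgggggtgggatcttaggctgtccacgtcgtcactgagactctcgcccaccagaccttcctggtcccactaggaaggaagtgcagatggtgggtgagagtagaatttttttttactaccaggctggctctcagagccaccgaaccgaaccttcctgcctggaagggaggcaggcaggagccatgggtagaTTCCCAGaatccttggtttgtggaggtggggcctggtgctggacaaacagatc
Pros1: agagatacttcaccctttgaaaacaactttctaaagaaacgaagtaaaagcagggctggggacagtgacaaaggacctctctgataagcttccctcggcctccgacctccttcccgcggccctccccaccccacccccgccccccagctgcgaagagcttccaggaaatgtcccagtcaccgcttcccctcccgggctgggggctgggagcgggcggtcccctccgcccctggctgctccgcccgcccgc

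Neither F7 nor Pros1 held any of the 3 motifs, and Masp2 held 1, an interleukin-6 response element core on the reverse strand at -53 to -47. These matches describe letters in a window and no binding was measured.

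F13b, the carrier subunit of the factor XIII that cross-links fibrin, is the remaining fibrin gene, and it fell where the fibrinogen chains rose. Its level was 163, 141 and 139 CPM in the WT vehicle livers, 133, 103 and 96.8 in the WT APAP livers, 161, 146 and 189 in the KO-label vehicle livers and 84.0, 112 and 80.9 in the KO-label APAP livers. The APAP livers of both labels lay below all vehicle livers. It fell to 0.561 times the vehicle level under the KO label (log2 -0.83, SE 0.17, edgeR adjusted p 0.011) and over all 12 livers (log2 -0.63, SE 0.14, edgeR adjusted p 0.00497), with -0.40 (SE 0.19) in WT mice.

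Of the vitamin K-dependent zymogens F2, F7, F9 and F10, 3 of 4 fell under the KO label. F7, the protease that tissue factor binds to start clotting, showed the largest decrease of the 4. It was measured at 90.6, 108 and 96.9 CPM in the WT vehicle livers, 59.5, 65.5 and 44.8 in the WT APAP livers, 80.0, 87.8 and 87.8 in the KO-label vehicle livers and 46.7, 50.4 and 39.3 in the KO-label APAP livers. Every APAP liver lay below every vehicle liver, by a log2 fold change of -0.85 over all 12 livers (SE 0.11, edgeR adjusted p 0.0002), of -0.90 under the KO label (SE 0.13, edgeR adjusted p 0.0034) and of -0.79 in WT mice (SE 0.19, edgeR adjusted p 0.088, which did not pass). F9, the protease missing in haemophilia B, was at 181, 195 and 178 CPM in the WT vehicle livers, 148, 132 and 119 in the WT APAP livers, 185, 174 and 219 in the KO-label vehicle livers and 133, 140 and 108 in the KO-label APAP livers. The treatment groups of F9 were again separate, and it fell over all 12 livers (log2 -0.54, SE 0.10, edgeR adjusted p 0.00265).

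F10, which forms the enzyme that cleaves prothrombin, is the neighbour of F7 on chromosome 8, 1.5 kb away (F7 chr8:13025506-13035809, F10 chr8:13037308-13056676), and changed less. Its level was 314, 371 and 325 CPM in the WT vehicle livers, 313, 300 and 226 in the WT APAP livers, 282, 328 and 294 in the KO-label vehicle livers and 198, 238 and 225 in the KO-label APAP livers. WT APAP livers 1 and 2 lay within the range of the vehicle livers, and the decrease under the KO label (log2 -0.44, SE 0.13, edgeR adjusted p 0.0447) passed in 0 of the 6 fits with 1 liver left out. F2, prothrombin itself, did not pass in any comparison, with 1266 to 1481 CPM in APAP livers and 1382 to 1753 CPM in vehicle livers and a log2 fold change of -0.17 over all 12 livers (SE 0.10, edgeR adjusted p 0.238).

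The cofactor and contact genes also fell in 3 of 5 cases under the KO label. F5, the cofactor of factor Xa, was at 705, 630 and 610 CPM in the WT vehicle livers, 310, 536 and 444 in the WT APAP livers, 716, 626 and 552 in the KO-label vehicle livers and 460, 412 and 367 in the KO-label APAP livers. All APAP livers were below all vehicle livers, and F5 fell over all 12 livers (log2 -0.60, SE 0.14, edgeR adjusted p 0.00664). F11 and Klkb1, which encode factor XI and plasma prekallikrein, are paralogous neighbours 4.6 kb apart on chromosome 8 (Klkb1 chr8:45266688-45294835, F11 chr8:45240659-45262055). F11 stood at 55.2, 61.1 and 67.8 CPM in the WT vehicle livers, 54.4, 40 and 47.0 in the WT APAP livers, 63.8, 79.3 and 71.4 in the KO-label vehicle livers and 37.8, 38.3 and 41.4 in the KO-label APAP livers. Klkb1 stood at 271, 188 and 283 CPM in the WT vehicle livers, 179, 135 and 142 in the WT APAP livers, 285, 264 and 289 in the KO-label vehicle livers and 146, 166 and 113 in the KO-label APAP livers. Both separated the treatments completely. Under the KO label F11 fell to 0.552 times the vehicle level (log2 -0.86, SE 0.12, edgeR adjusted p 0.00325) and Klkb1 to 0.510 times (log2 -0.97, SE 0.16, edgeR adjusted p 0.0055), the largest decrease of the 39 genes in that comparison. In WT mice the log2 fold changes were -0.37 (SE 0.18) and -0.69 (SE 0.23). F12, the contact factor that activates F11, and Kng1, the kininogen that carries F11 and prekallikrein, did not pass, with -0.12 (SE 0.10) and -0.24 (SE 0.14) over all 12 livers. Kng1 has a close paralogue, so its reads may have been divided between the pair.

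Among the anticoagulants, Pros1 and Serpind1 fell and Serpinc1 did not pass. Pros1 encodes protein S, the cofactor of activated protein C, and was the least abundant of the plasma protein genes. It stood at 37.8, 60.5 and 50.1 CPM in the WT vehicle livers, 30.4, 29.8 and 24.9 in the WT APAP livers, 44.9, 37.5 and 47.0 in the KO-label vehicle livers and 20.3, 26.0 and 22.2 in the KO-label APAP livers. The groups did not overlap, and Pros1 fell to 0.550 times the vehicle level over all 12 livers (log2 -0.86, SE 0.12, edgeR adjusted p 0.000392), with log2 values of -0.91 (SE 0.15) under the KO label and -0.79 (SE 0.21) in WT mice. Serpind1, heparin cofactor II, an inhibitor of thrombin, was at 413, 353 and 358 CPM in the WT vehicle livers, 299, 272 and 230 in the WT APAP livers, 398, 427 and 487 in the KO-label vehicle livers and 253, 278 and 178 in the KO-label APAP livers. It too separated the treatments, with a log2 fold change of -0.88 under the KO label (SE 0.19, edgeR adjusted p 0.0135) and -0.48 in WT mice (SE 0.19). Proc, protein C, was at 520, 590 and 496 CPM in the WT vehicle livers, 506, 429 and 409 in the WT APAP livers, 454, 537 and 459 in the KO-label vehicle livers and 360, 387 and 386 in the KO-label APAP livers. WT APAP liver 1 lay among the vehicle livers, and the decrease over all 12 livers (log2 -0.31, SE 0.10, edgeR adjusted p 0.0425) passed in 2 of 12 fits with 1 liver left out. Serpinc1, antithrombin, was at 1217 to 1644 CPM in APAP livers and 1394 to 1641 CPM in vehicle livers, with a log2 fold change of -0.16 (SE 0.11, edgeR adjusted p 0.342).

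All 4 genes of fibrin breakdown had log2 fold changes below 0 under both labels, and Cpb2 and Hrg fell under the KO label. Hrg, a histidine-rich glycoprotein that binds plasminogen and heparin, was at 1083, 1451 and 1002 CPM in the WT vehicle livers, 597, 712 and 701 in the WT APAP livers, 875, 1032 and 864 in the KO-label vehicle livers and 673, 616 and 666 in the KO-label APAP livers. No APAP liver reached the lowest vehicle liver, and Hrg fell over all 12 livers (log2 -0.66, SE 0.13, edgeR adjusted p 0.00236) and under the KO label (-0.49, SE 0.14, edgeR adjusted p 0.0372). Plg, plasminogen, was at 2119, 2649 and 2030 CPM in the WT vehicle livers, 1590, 1861 and 1699 in the WT APAP livers, 2152, 2247 and 1847 in the KO-label vehicle livers and 1741, 1832 and 1526 in the KO-label APAP livers. Serpinf2, the plasmin inhibitor alpha-2-antiplasmin, was at 582, 786 and 619 CPM in the WT vehicle livers, 469, 514 and 409 in the WT APAP livers, 559, 576 and 520 in the KO-label vehicle livers and 476, 419 and 520 in the KO-label APAP livers. For each of Plg and Serpinf2 the APAP and vehicle livers met only at vehicle liver 3 labelled KO, and the decreases over all 12 livers (log2 -0.35, SE 0.12, and -0.37, SE 0.12, edgeR adjusted p 0.043 and 0.0383) passed in 2 of 12 fits each with 1 liver left out. Cpb2 encodes the carboxypeptidase TAFI, which protects fibrin from plasmin, and was at 169, 366 and 180 CPM in the WT vehicle livers, 264, 196 and 190 in the WT APAP livers, 201, 227 and 236 in the KO-label vehicle livers and 152, 174 and 146 in the KO-label APAP livers. It fell under the KO label (log2 -0.48, SE 0.13, edgeR adjusted p 0.0319), while in WT mice the vehicle livers 1 and 3 lay below all 3 APAP livers and vehicle liver 2 above them (log2 -0.13, SE 0.33, and 0.31 without vehicle liver 2).

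In the classical route of complement, 3 of 4 genes fell under the KO label and over all 12 livers. C1ra and C1s1 encode the proteases of the C1 complex and lie 6.9 kb apart on chromosome 6 (C1ra chr6:124512621-124523440, C1s1 chr6:124530344-124542392). C1ra was at 293, 312 and 270 CPM in the WT vehicle livers, 220, 241 and 224 in the WT APAP livers, 290, 323 and 292 in the KO-label vehicle livers and 213, 234 and 202 in the KO-label APAP livers. C1s1 was at 461, 462 and 405 CPM in the WT vehicle livers, 348, 323 and 336 in the WT APAP livers, 458, 444 and 481 in the KO-label vehicle livers and 326, 347 and 246 in the KO-label APAP livers. Both were lower in every APAP liver than in any vehicle liver, and fell over all 12 livers by -0.42 (SE 0.09, edgeR adjusted p 0.00517) and -0.50 (SE 0.11, edgeR adjusted p 0.00525) on the log2 scale. Each has a close paralogue, C1rb and C1s2, with which reads may have been divided, and both paralogues fell as well (log2 -0.46 and -0.59, edgeR adjusted p 0.00236 and 0.00337).

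C2, the protease subunit of the classical C3 convertase, fell most among complement genes over all 12 livers. It was at 107, 116 and 118 CPM in the WT vehicle livers, 72.9, 76.4 and 50.6 in the WT APAP livers, 96.5, 119 and 90.8 in the KO-label vehicle livers and 50.3, 61.5 and 52.1 in the KO-label APAP livers. The treatments did not overlap, and C2 fell to 0.561 times the vehicle level over all 12 livers (log2 -0.83, SE 0.12, edgeR adjusted p 0.000393), by -0.89 under the KO label (SE 0.15, edgeR adjusted p 0.00508) and -0.76 in WT mice (SE 0.20, edgeR adjusted p 0.104, which did not pass). Its neighbour Cfb, the corresponding protease of the alternative route, lies 88 bases from C2 on chromosome 17 (Cfb chr17:34856374-34862514, C2 chr17:34862602-34882100). Cfb had a log2 fold change of -0.32 (SE 0.12, edgeR adjusted p 0.0679) and did not pass, with 686 to 857 CPM in APAP livers and 826 to 1267 CPM in vehicle livers. C4b, the partner of C2, was at 898 to 1456 CPM in APAP livers and 1178 to 2360 CPM in vehicle livers. It did not pass either (log2 -0.41, SE 0.19, edgeR adjusted p 0.145). Without WT vehicle liver 2 its log2 fold change was -0.24 in the remaining livers of both labels and -0.03 in WT mice. C4b has a close paralogue, so its count is uncertain.

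C3, the component on which all routes converge, had the highest median TPM of the 39 over the 6 vehicle livers, with a range (1525 to 3736 TPM) that overlapped that of Fgb (1925 to 10440 TPM), and did not pass in any comparison. It stood at 6782, 12930 and 7342 CPM in the WT vehicle livers, 5130, 7653 and 7029 in the WT APAP livers, 9171, 7652 and 5801 in the KO-label vehicle livers and 6361, 7106 and 6320 in the KO-label APAP livers. WT vehicle liver 2 was the highest and the other groups overlapped. The log2 fold change was -0.44 in WT mice (SE 0.33) and -0.09 there without WT vehicle liver 2, and -0.18 under the KO label (SE 0.21, edgeR adjusted p 0.565).

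In the lectin route, Masp2 fell and the others varied. Masp2, the protease that cleaves C4 and C2 after lectin binding, was at 252, 273 and 234 CPM in the WT vehicle livers, 169, 160 and 151 in the WT APAP livers, 234, 235 and 207 in the KO-label vehicle livers and 139, 152 and 130 in the KO-label APAP livers. Every APAP liver was below every vehicle liver, and the log2 fold change was -0.67 under the KO label (SE 0.13, edgeR adjusted p 0.00838) and -0.65 in WT mice (SE 0.17, edgeR adjusted p 0.102, which did not pass), a difference between the labels of 0.02 (SE 0.19). Mbl1, a mannose-binding lectin, was at 88.6, 208 and 140 CPM in the WT vehicle livers, 177, 140 and 158 in the WT APAP livers, 154, 147 and 151 in the KO-label vehicle livers and 110, 126 and 103 in the KO-label APAP livers. It fell under the KO label (log2 -0.40, SE 0.12, edgeR adjusted p 0.049), a call kept in 1 of 6 fits with 1 liver left out, and the WT groups overlapped (log2 0.13, SE 0.30). Mbl2, the other mannose-binding lectin, and Masp1, a second lectin-bound protease, did not pass under the KO label (-0.54, SE 0.17, edgeR adjusted p 0.053, and -0.17, SE 0.17, edgeR adjusted p 0.5). With both WT vehicle liver 2 and WT APAP liver 1 left out, Mbl2 fell in the remaining 10 livers (log2 -0.43, edgeR adjusted p 0.0153).

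The terminal pathway, whose products assemble the membrane attack complex, fell in 3 of 5 genes under the KO label, and its WT values lay nearer 0. C6, which joins the nascent complex after C5b, was at 188, 229 and 207 CPM in the WT vehicle livers, 166, 183 and 190 in the WT APAP livers, 177, 202 and 209 in the KO-label vehicle livers and 102, 113 and 104 in the KO-label APAP livers. The APAP livers labelled KO, at 102 to 113 CPM, were below the other 9 livers, which ranged from 166 to 229 CPM. C6 fell to 0.546 times the vehicle level under the KO label (log2 -0.87, SE 0.12, edgeR adjusted p 0.00309), and its log2 fold change in WT mice was -0.20 (SE 0.17, edgeR adjusted p 0.576). C8b, a chain of C8, was at 267, 288 and 261 CPM in the WT vehicle livers, 242, 262 and 238 in the WT APAP livers, 257, 355 and 303 in the KO-label vehicle livers and 169, 195 and 188 in the KO-label APAP livers. In C8b, too, the 3 APAP livers labelled KO were the lowest of the 12, and the log2 fold change was -0.72 under the KO label (SE 0.15, edgeR adjusted p 0.0123) and -0.13 in WT mice (SE 0.17). C9, which forms the pore, was at 350, 409 and 358 CPM in the WT vehicle livers, 445, 344 and 368 in the WT APAP livers, 373, 434 and 482 in the KO-label vehicle livers and 299, 287 and 246 in the KO-label APAP livers. Again the APAP livers labelled KO were lowest, with log2 -0.62 (SE 0.15, edgeR adjusted p 0.0216) against 0.06 in WT mice (SE 0.20). C8a, a neighbour of C8b 11.1 kb away on chromosome 4, and C8g, the third C8 chain, did not pass (KO label -0.39, SE 0.14, edgeR adjusted p 0.0866, and -0.22, SE 0.13, edgeR adjusted p 0.264).

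**Figure D4:**
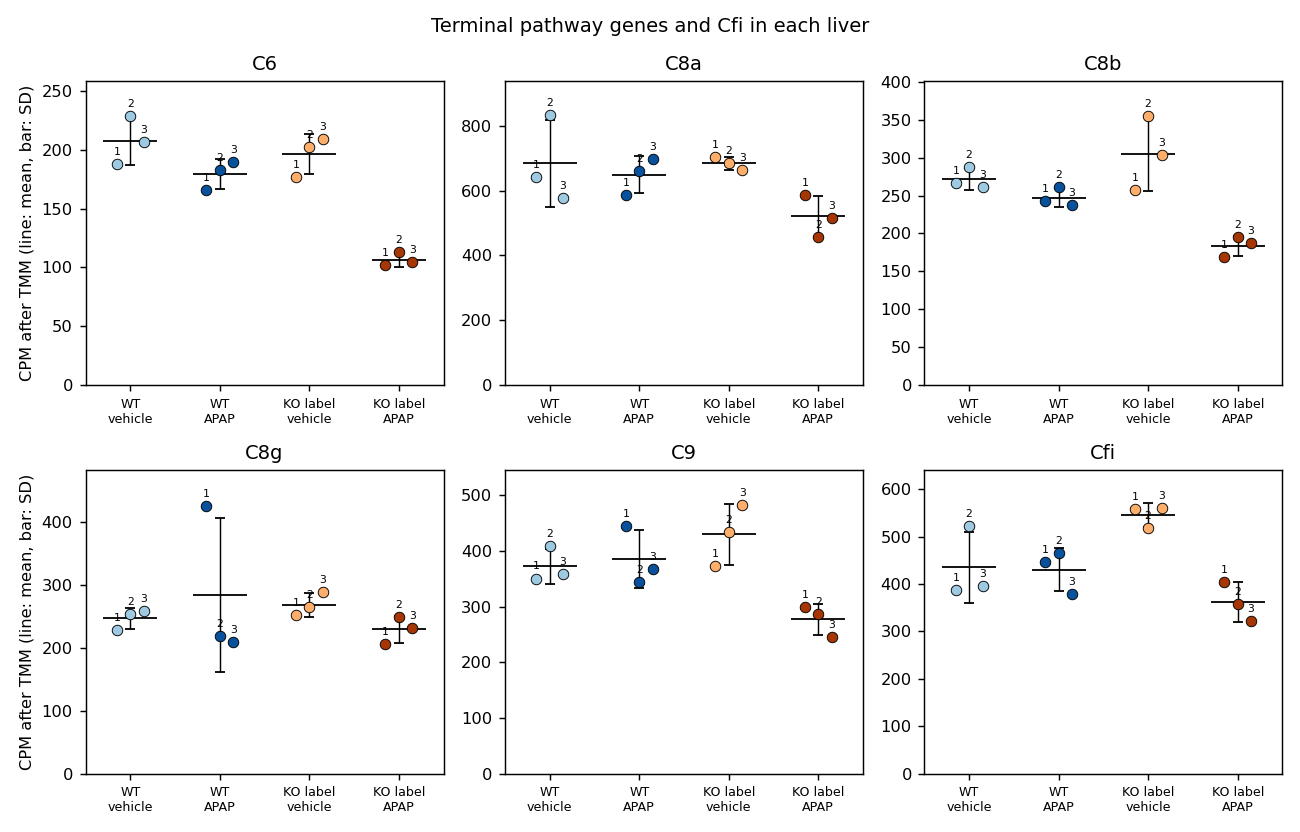
CPM of the 5 terminal pathway genes and Cfi (y axis, from 0) in each of the 12 livers by group, with liver numbers, the group mean (line) and SD (bar). The 3 APAP livers labelled KO are the lowest of the 12 livers for C6, C8b and C9.

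Of the regulators, Cfi, the protease that inactivates C3b and C4b, was at 388, 522 and 396 CPM in the WT vehicle livers, 446, 466 and 380 in the WT APAP livers, 559, 517 and 560 in the KO-label vehicle livers and 405, 358 and 322 in the KO-label APAP livers. It fell under the KO label (log2 -0.58, SE 0.14, edgeR adjusted p 0.021, kept in 2 of 6 fits with 1 liver left out), and the WT groups overlapped (log2 -0.01, SE 0.21). C4bp, the binding protein that acts with Cfi on C4b, did not pass (KO label -0.38, SE 0.15, edgeR adjusted p 0.0971; WT 0.16, SE 0.27).

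The difference between the labels was tested directly. In the genotype by treatment interaction over all 12 livers, 0 of 39 genes and 0 of 16509 genes (0%) passed edgeR's adjusted p under 0.05, and DESeq2 called 0 of the 39 (0.0545% of all genes). At an unadjusted p under 0.05 there were 5, against 5.14% of all genes: C6 (interaction 0.67, SE 0.19, p 0.00438, edgeR adjusted p 0.872), C9 (0.68, SE 0.23), C8b (0.59, SE 0.21), Cfi (0.58, SE 0.23) and F11 (0.49, SE 0.21). In all 5 the log2 fold change was lower under the KO label than in WT mice, 4 are complement genes, and none passed in any of the 20 alternatives to this test. After APAP, WT livers were above livers labelled KO without overlap for 8 of the 39 genes (3.86% of all genes), namely C4bp, C6, C8a, C8b, C9, Cpb2, Mbl1 and Proc. In that comparison edgeR called 0 of the 39 (0.0309% of all genes) and 5 had an unadjusted p under 0.05 (3.31%): C6, C8b, C9, Cpb2 and Mbl1. DESeq2 called 1 (0.179%), C6, at a log2 difference of 0.77 (adjusted p 0.000562), where edgeR gave 0.77 (SE 0.16, adjusted p 0.958), so the call depends on the test. In vehicle livers edgeR called 0 of the 39 between the labels (0.0262% of all genes), 0 had an unadjusted p under 0.05 (7.56%), and DESeq2 called 0 (0.898%). After APAP, the log2 difference of WT over KO label was above 0 for 38 of the 39 genes (median 0.26). Related lists lay on the same side: 24 of 24 other plasma proteins (median 0.24), 27 of 27 other complement genes (0.30) and 17 of 18 acute phase proteins (0.52). Over all genes it was above 0 for 8447 of 16174 (median 0.02). The interaction and the comparisons between labels use the same APAP livers and are not separate evidence.

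C5ar1 is the one receptor among the 39, and it rose. It was counted 26 to 213 times per liver and stood at 0.638, 0.964 and 0.519 CPM in the WT vehicle livers, 3.18, 2.83 and 0.859 in the WT APAP livers, 0.772, 0.662 and 0.906 in the KO-label vehicle livers and 1.08, 0.799 and 2.26 in the KO-label APAP livers. WT APAP livers 1 and 2 and the APAP livers 1 and 3 labelled KO were above all vehicle livers, and the other 2 APAP livers lay among them. It rose over all 12 livers (log2 1.26, SE 0.37, edgeR adjusted p 0.0238), a call lost without the APAP liver 3 labelled KO or without WT vehicle liver 1 or 3 (largest edgeR adjusted p 0.0779), and the log2 fold change was 1.70 in WT mice (SE 0.54, edgeR adjusted p 0.151) and 0.84 under the KO label (SE 0.41, edgeR adjusted p 0.182). Neutrophils carry this receptor. The 9 neutrophil markers summed to 131, 12.7 and 22.6 CPM in the WT APAP livers, 1.95, 19.7 and 1.20 CPM in the WT vehicle livers, 3.95, 1.15 and 8.55 CPM in the APAP livers labelled KO and 2.47, 1.42 and 1.90 CPM in the vehicle livers labelled KO, and Camp was at 0 in all 12. They were highest in WT APAP liver 1, as was C5ar1, and this is the liver with erythroid genes at 1.30% of its counts. The orders differed in the other WT APAP livers. Liver 2, at 12.7 CPM of these markers, had 2.83 CPM of C5ar1, and liver 3, at 22.6 CPM, had 0.859 CPM. The 6 monocyte markers (17.6 CPM) and the platelet markers (21.9 CPM) were also highest in WT APAP liver 1. The 7 Kupffer cell markers summed to 171, 156 and 69.2 CPM in the WT APAP livers and 81.3 to 126 CPM in the WT vehicle livers. Under the KO label they summed to 79.6 to 117 CPM after APAP and 106 to 177 CPM after vehicle. The part of any of these cells in the change of C5ar1 was not tested.

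**Figure D5:**
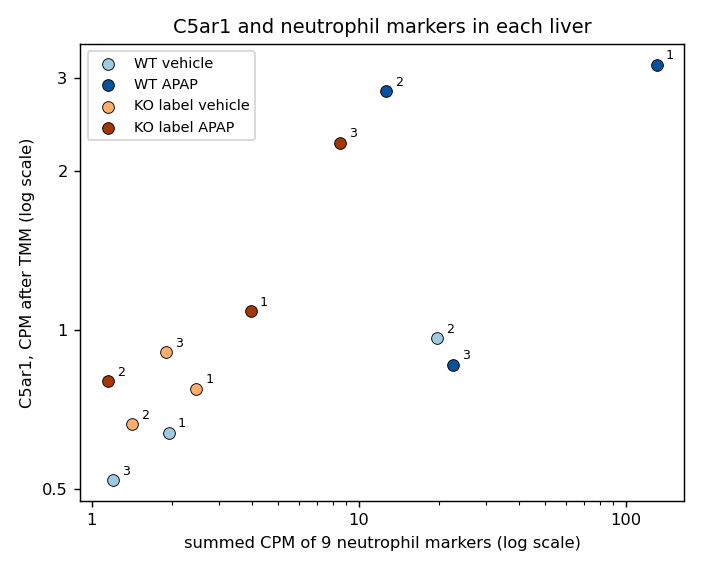
CPM of C5ar1 (y axis, log scale) against the summed CPM of 9 neutrophil markers (x axis, log scale) in each of the 12 livers, coloured by group and numbered. WT APAP liver 1 is highest on both axes, and the vehicle livers lie between 0.519 and 0.964 CPM of C5ar1.

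Level and change were related across the 39 genes. Ranked by median TPM in vehicle livers, the less abundant genes had the more negative log2 fold changes under the KO label (Spearman's rho 0.63 over 39 genes, and 0.70 over the 35 left without the fibrinogen chains and C5ar1), over all 12 livers (0.46 and 0.48) and, weakly, in WT mice (0.18 and 0.22). The genes are measured in the same livers and at the same depth, so these are descriptions. Whether the relation is particular to these genes was not tested. The most abundant genes after C3 and fibrinogen, Plg, Kng1, F2 and Serpinc1, had log2 fold changes of -0.35, -0.24, -0.17 and -0.16 over all 12 livers, and Hrg, the next below Fga, had -0.66. The 6 genes above C5ar1 at the bottom of the order were Pros1 (-0.86), Masp1 (-0.03), F11 (-0.62), C2 (-0.83), F7 (-0.85) and Klkb1 (-0.84). Among these high and low genes Hrg and Masp1 did not follow the order.

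Among other genes of the same systems that passed the test under the KO label, those of clotting gave both directions and those of complement were all lower. Of the other clotting genes, 23 of 26 were tested under the KO label, where 5 rose and 5 fell (13% and 9.6% of all genes). In WT mice 1 of 24 rose and 0 fell (1.62% and 0.427% of all genes). Over all 12 livers 4 of 25 rose and 5 fell (14% and 11.4% of all genes). Among those that rose over all 12 livers by edgeR's test were Plaur, the urokinase receptor (log2 3.22, SE 0.50), Thbd, thrombomodulin (2.16, SE 0.40), and Procr, the endothelial protein C receptor (2.93, SE 0.56, named after its values were seen). Among those that fell over all 12 livers, Proz, the vitamin K-dependent protein Z, had a log2 fold change of -0.90 (edgeR adjusted p 0.000138) and Lman1, a cargo receptor for the export of factors V and VIII, of -0.67 (0.000393). Of the other complement genes, 27 of 28 were tested under the KO label, where 7 fell and 0 rose (9.6% and 13% of all genes). Those with the smallest p included C1rl (log2 -0.79), Hc, which encodes C5 (-0.66), C1s2 (-0.70) and C1rb (-0.51), with edgeR adjusted p from 0.00542 (C1rl) to 0.0194 (C1rb). The median log2 fold change of the 27 was -0.39 under the KO label, with 23 below 0. In WT mice 0 of the 27 passed (2.05% of all genes), and the median was 0.25, with 17 above 0 and 10 below.

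The lists of other plasma proteins and of acute phase proteins differed under the KO label, where 9.6% of all genes fell and 13% rose. Of 24 other plasma proteins, 1 fell under the KO label, the corticosteroid-binding globulin Serpina6 (log2 -2.05, SE 0.23, edgeR adjusted p 0.00127), and 0 rose, with a median of -0.09. Of 18 acute phase proteins 4 rose under the KO label, Cd14 (2.29), Hamp (1.53), Apcs (0.58) and Lcn2 (3.56), and 2 fell, Crp (-0.95) and Saa4 (-1.17, named after its values were seen). In WT mice 0 of the 24 and 0 of the 18 passed (2.05% of all genes). The WT median was 0.02 for the 24 and -0.63 for the 18, of which 4 were above 0 and 14 below. No difference between these lists and the clotting or complement genes was tested.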

How the data were processed

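Liver RNA of 12 mice was sequenced from stranded poly-A libraries as Illumina paired-end reads. The submitters' processing notes name FastQC 0.11.7, Trimmomatic 0.38, HISAT2 2.1.0, Bowtie2 2.3.4.1 and StringTie 2.1.3b and the builds mm10 and GRCm38, and how reads shared by paralogues or overlapping genes were assigned is not given in the sources used here. The authors deposited raw read counts per gene, which are whole numbers, and TPM values, which the authors scaled for transcript length and library size. Deposited FPKM values were not used. The 12 livers have 12 columns of counts, 0 columns were unassigned, and 0 of 66 library pairs were identical.

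Counts were scaled by TMM, filtered by filterByExpr and tested across all genes with edgeR 4.0.16 in R 4.3.3 (quasi-likelihood test), calling genes at a Benjamini-Hochberg adjusted p under 0.05. APAP was compared with vehicle in WT mice, under the KO label and over all 12 livers with the genotype label in the model, WT was compared with the KO label within each treatment, and the interaction is the WT response minus that under the KO label. Each pairwise fit used only the 6 livers compared. Log2 fold changes are given with standard errors (SE), and a positive value means higher in the group named first. Alternatives were DESeq2 1.42.0 size factors and Wald test, no filter, at least 10 counts in every sample, limma 3.58.1 on log2 values of TPM after quantile normalization with a pseudocount of 1 or of 0.1, the replicate number as a block, 1 fit of all 12 livers, and each liver left out in turn. Leaving out WT vehicle liver 2 and WT APAP liver 1 together was chosen after seeing the data. The pipeline was tested on simulated data. The 39 genes and the gene lists were chosen with earlier results of these data known. All 39 genes passed the filter in every comparison and are named, with each liver's value for those called in a comparison and for the fibrinogen chains, C3 and C5ar1. Of other lists at most 5 called genes with the smallest unadjusted p are named, and some genes are not reported here. Positions and promoters came from RefSeq (GRCm38.p6). Motifs were searched in the 250 bases before the start.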

Additional observations from a re-analysis of the deposited data

How the results depend on the processing

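No member called in a comparison changed direction under any alternative. The count of the 39 genes called moved by over 1.5 times in WT mice, under the KO label and between the labels after APAP. In WT mice it was 0, and 6 by DESeq2's Wald test (1 higher, 5 lower), 6 when all 12 livers shared one fit (all lower: C2, F7, Hrg, Klkb1, Masp2 and Pros1) and 2 without WT vehicle liver 2 and WT APAP liver 1, an alternative chosen after seeing the data. Under the KO label it was 23, and 13 with limma on log2(TPM + 0.1) (3 higher, 10 lower), 15 when all 12 livers shared one fit (0 higher, 15 lower), 15 with the replicate number as a block, and 10 to 21 with 1 liver left out. By DESeq2's Wald test it was 28 under that label (3 higher, 25 lower), where 27.6% of all genes were called. Between WT and the KO label after APAP it was 0, and 1 (C6) by DESeq2's Wald test. Over all 12 livers it moved by less: it was 20, with 15 to 20 when 1 liver was left out, among them 19 (4 higher, 15 lower) without WT vehicle liver 2, and 22 (4 higher, 18 lower) without both doubted livers. Calls over all genes moved as well. In WT mice they were 255 higher and 67 lower, against 968 and 555 when all 12 livers shared 1 fit. By DESeq2's Wald test they were 877 and 536, and without both doubted livers 435 and 196. Under the KO label they were 2034 and 1504, against 1492 and 1483 with limma on log2(TPM + 0.1). Sharing 1 fit of all 12 livers gave 1405 and 844 there, and the replicate block 1596 and 1165. The causes were not tested. The medians of clotting and of complement moved by less than the spread between livers under every alternative; the complement median in WT mice ranged from -0.19 to 0.02. Leaving 1 liver out took 53 calls away and added 1 over the 6 fits under the KO label, and took away 46 and added 5 over the 12 fits of all livers.

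Nothing in the labels says that a liver number marks a shared litter or day. Of 18 pairs of livers with the same number, 0 had deviations from their group means that correlated above 0.1 (-0.30 to 0.09 over the 500 most variable genes). With the replicate number as a block, 15 members were called under the KO label (3 higher, 12 lower), 18 over all 12 livers, and 0 in each of the other comparisons.

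With 3 livers a group and at least 49737950 counts in each, C5ar1 was the one gene of the 39 with few counts (26 to 213). The SE of the fibrinogen chains was 0.66 to 0.76 in WT mice and 0.17 to 0.20 under the KO label, so the WT comparison could not show a change of the size seen under the KO label. The p-values set each difference against the spread between the mice within a group. Altered transcription, RNA stability and cell number cannot be told apart in these counts.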

Other observations

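In WT vehicle liver 2, where Fga reached 14630 CPM, the neutrophil markers summed to 19.7 CPM, within the WT APAP range of 12.7 to 131 CPM.

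In WT APAP liver 1, Fga stood at 3443 CPM, below Fgg at 3993 CPM. In the other 11 livers the CPM of Fga was above that of Fgg. CPM is not corrected for transcript length, so these values do not give the order of abundance of the chains. In TPM, the median over the 6 vehicle livers was higher for Fgg (1553 TPM) than for Fga (1186 TPM).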
